A study of Homo sapiens with 15 samples.

Results

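The mu-class glutathione transferases are GSTM1, GSTM2, GSTM3, GSTM4 and GSTM5, and these 5 genes were taken by name from the 57820 gene identifiers in the count table of the knockdown/rescue experiment. All 5 averaged at least 1 count per library and were tested. RNA-seq was performed on A673 cells, an Ewing sarcoma line, in 5 conditions with 3 libraries each. Cells of the iLuc condition received an shRNA against luciferase with an empty vector and kept their own EWS/FLI (endo-EF). Cells of the iEF condition received an shRNA against EWS/FLI with the empty vector. WT-EF, Δ22 and DAF cells received that same EWS/FLI shRNA and a cDNA for wildtype EWS/FLI, for a construct lacking the EWS domain, or for EWS/FLI with tyrosine to alanine mutations in the EWS domain. All conditions were transduced with shRNA on day 1 and with cDNA or empty vector on day 5, and selection with 2 μg/mL puromycin and 400 μg/mL hygromycin ended on day 16. A single cell line was used. The labels give the replicates only as numbers, and the study's scheme draws a replicate as a course from transduction to harvest, so p-values measure the spread between these libraries of 1 line.

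Glutathione transferases join the tripeptide glutathione to reactive, electrophilic compounds, which makes these compounds more soluble and readies them for export. The mu class is 1 of the cytosolic classes, and its enzymes work as dimers whose subunits differ in the compounds they accept. The human mu-class genes lie side by side on chromosome 1 and arose by duplication. EWS/FLI is the fusion oncoprotein of Ewing sarcoma and binds DNA through the ETS domain of FLI, in particular at microsatellites of repeated GGAA units. GSTM4 has been described as a gene that EWS/FLI activates from such a microsatellite.

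The cluster was placed on GRCh37, the build of the authors' alignment, with a gene annotation newer than theirs. On the plus strand the order is GSTM4 (chr1:110198721-110208118), GSTM2 (chr1:110210644-110252173), GSTM1 (chr1:110230436-110251661) and GSTM5 (chr1:110254402-110318050), each with 8 exons in its reference transcript. GSTM3 (chr1:110276554-110283660) has 9 exons and lies on the minus strand. GSTM2 and GSTM1 overlap in this annotation because of long transcript variants, and the span of GSTM3 lies within that of GSTM5.

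From 50 kb before the start of GSTM4 to 50 kb past the end of GSTM5, the reference genome held 2 runs of at least 3 GGAA units, and they lie next to each other. The first run has 8 units and the second has 10, and 18 units therefore stand within 73 bases. The nearer end is 1791 bases upstream of the GSTM4 start. By comparison, 7.25% of 20162 protein-coding starts in this genome have a run of at least 3 units within 5000 bases. The distance to the start of GSTM2 is 13.7 kb, to GSTM1 33.5 kb, to GSTM5 57.9 kb and to GSTM3 86.7 kb. The sequence is shown because it is the sole such repeat in this window. It is from the reference and not from A673, whose repeat length was not measured here. The 2 runs are in capitals, on the plus strand of GRCh37 at chr1:110196818-110196970.
GGAA microsatellite upstream of GSTM4: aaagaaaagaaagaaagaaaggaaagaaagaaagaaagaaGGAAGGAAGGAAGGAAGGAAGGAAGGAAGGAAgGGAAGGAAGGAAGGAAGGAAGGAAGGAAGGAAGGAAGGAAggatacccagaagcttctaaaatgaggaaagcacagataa

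The promoters of GSTM2, GSTM1 and GSTM5 resemble each other more closely than they resemble that of GSTM4 or GSTM3. Of the 300 bases around each start in RefSeq (GRCh38.p14), 88.7% of aligned bases were identical between GSTM1 and GSTM5, 75.4% between GSTM2 and GSTM5 and 73.2% between GSTM1 and GSTM2. The identity of the GSTM4 promoter with these 3 was between 60.4% and 63.9%. One run of 21 bases, in capitals below, was common to GSTM2, GSTM1 and GSTM5 and was not found in the promoters of GSTM4 or GSTM3. The GSTM4 promoter shares a different run, of 23 bases, with GSTM1 and with GSTM5. The run in capitals begins 48 bases before the start in GSTM2 and GSTM1 and 42 bases before it in GSTM5. The stretches are written 5′ to 3′ on each gene's strand, and those without capitals run through the start of GSTM4 and of GSTM3.
GSTM4 promoter, chr1:109655999-109656118, plus strand: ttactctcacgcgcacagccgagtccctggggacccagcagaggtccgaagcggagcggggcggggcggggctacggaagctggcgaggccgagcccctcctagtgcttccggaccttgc
GSTM2 promoter, chr1:109667969-109668069, plus strand: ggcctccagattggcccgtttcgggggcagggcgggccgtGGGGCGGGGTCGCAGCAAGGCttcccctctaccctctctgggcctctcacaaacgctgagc
GSTM1 promoter, chr1:109687729-109687829, plus strand: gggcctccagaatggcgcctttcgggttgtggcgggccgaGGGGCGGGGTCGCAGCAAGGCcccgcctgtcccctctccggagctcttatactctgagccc
GSTM5 promoter, chr1:109712169-109712269, plus strand: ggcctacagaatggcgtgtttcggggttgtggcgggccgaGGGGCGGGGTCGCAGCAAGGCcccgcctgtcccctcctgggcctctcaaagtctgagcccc
GSTM3 promoter, chr1:109741019-109741138, minus strand: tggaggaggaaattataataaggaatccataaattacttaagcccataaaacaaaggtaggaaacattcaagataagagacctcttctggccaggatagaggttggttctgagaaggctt

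Motifs were searched on both strands of these 300-base promoters. CCGGAAGT, 1 form of the core of a high-affinity ETS site, was found in none of the 5. Of 35116 RefSeq promoters of this length, 4.14% hold it. The study's own definition, ACMGGAARY with M, R and Y for alternative bases, was not searched. The GGAA core matched 7 times in GSTM3, 4 times each in GSTM4 and GSTM1, 3 times in GSTM5 and 1 time in GSTM2, and 95.5% of all promoters hold a match. TGACNNNGC, the core of the antioxidant response element, matched 1 time each in GSTM1 and GSTM5 and in 13.3% of promoters.

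Because the members are paralogs, the counts of some cannot be fully separated. Of the 150-base windows of the GSTM1 reference transcript, 32.5% were identical to a stretch of another member, and the figure was 32.4% for GSTM2. Their longest common run was 479 bases, and 93.5% of their aligned bases were identical. No window of GSTM3, GSTM4 or GSTM5 was identical elsewhere, and 3.21% of GSTM4 windows were within 1 mismatch of another member. By shared windows alone, values of GSTM1 and GSTM2 are less certain than those of GSTM4 and GSTM3. The span of GSTM3 lies within that of GSTM5 here, and the span of GSTM1 within that of GSTM2 on the same strand. The strand setting and gene models of the counting are not known. A loss or gain of counts through these overlaps was not tested. Pseudogenes lie on other chromosomes (GSTM2P1, GSTM3P1, GSTM3P2 and GSTM5P1) and were not included in this comparison of windows.

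Total counts ranged from 28659475 to 41859880 per library. FLI1, which the count of the fusion transcript falls under, stood at 47.8 to 52.5 CPM in iLuc and 12.9 to 15.5 CPM in iEF. CPM here are counts scaled to the library's total after the TMM adjustment of edgeR. The FLI1 level was higher in iLuc than in iEF by 1.77 on the log2 scale (adjusted p = 7.93e-09, edgeR). FLI1 was 16.0 to 18.7 CPM in WT-EF, 24.4 to 36.2 CPM in Δ22 and 22.1 to 27.3 CPM in DAF, and the difference from iEF was called for Δ22 (1.09) and DAF (0.74) but not for WT-EF (0.27, adjusted p = 0.0538, edgeR). The study's shRNA targets an untranslated region of the EWS/FLI transcript. Counts per gene do not separate cDNA transcripts from those of the cells' own fusion, and the constructs differ in composition. These FLI1 counts are therefore not a measure of construct protein, which the study examined by western blot. The part of construct levels in the results below was not tested. Of the markers checked, STEAP1, PAPPA and LIPI were present in all libraries, at levels that differed between conditions. Averages in iLuc and iEF were 182 and 46.0 CPM for STEAP1, 130 and 31.3 CPM for PAPPA and 213 and 6.87 CPM for LIPI. CD99, which is duplicated on the X and Y chromosomes of the reference, was at 0 or nearly so throughout. NKX2-2, another Ewing sarcoma marker, averaged 5.23 CPM in iLuc and 2.35 CPM in WT-EF. It was low in iEF, Δ22 and DAF, at 0.944, 0.873 and 0.925 CPM on average. Epithelial EPCAM and CDH1 and the blood marker PTPRC were low, at most 1.01 CPM in any library, and the endothelial marker PECAM1 could not be matched by its symbol. EPCAM averaged 0.823 CPM in iLuc and 0.120 CPM in iEF.

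The first question was whether the members respond to endo-EF. GSTM1, GSTM2, GSTM3 and GSTM4 were higher with endo-EF than without it, from 2.00-fold for GSTM1 to 7.09-fold for GSTM4. In this comparison of iLuc with iEF, 4 of the 5 members were called at an adjusted p under 0.05, where 41.6% of the 28793 genes tested were called. Each of these 4 was higher in every iLuc library than in every iEF library. The share of all genes tested that separate completely between conditions was not counted, here or in the comparisons below.

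GSTM4, whose microsatellite is shown above, stood at 91.0, 78.3 and 85.3 CPM in the 3 iLuc libraries and at 11.5, 14.7 and 10.2 CPM in the iEF libraries. The iLuc libraries lie far above all of iEF. The difference was 2.83 ± 0.22 on the log2 scale (SE; adjusted p = 1.35e-07, edgeR quasi-likelihood test). GSTM2 is the neighbour of GSTM4 and encodes a transferase found at high levels in muscle. It stood at 14.7, 13.6 and 15.1 CPM in iLuc and 1.89, 4.11 and 3.14 CPM in iEF. Despite the spread within iEF, the groups were well apart, by 2.29 ± 0.21 (SE; adjusted p = 5.35e-07, edgeR).

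GSTM3, read from the opposite strand and known from brain and testis, stood at 50.7, 47.6 and 57.0 CPM in iLuc. In iEF it was at 17.4, 19.5 and 19.95 CPM, and the groups differed by 1.45 ± 0.11 on the log2 scale (SE; adjusted p = 1.02e-07, edgeR). GSTM1, which is absent from the genome of many people, was counted in all 15 libraries. It was 26.5, 19.4 and 30.4 CPM in iLuc and 13.3, 11.3 and 13.5 CPM in iEF. This was the smallest of the 4 differences, 1.00 ± 0.16 (SE; adjusted p = 1.27e-04, edgeR).

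GSTM5 was barely detected. Its counts were 6, 2 and 5 in iLuc, 0, 1 and 1 in iEF, 2, 5 and 4 in WT-EF, 0, 1 and 0 in Δ22 and 0, 2 and 0 in DAF. Summed over libraries, the ratio of iLuc to iEF was 7.58 with a 95% counting interval of 1.72 to 69.2, and that of WT-EF to iEF was 5.92, with an interval of 1.29 to 55.0. These exact intervals cover counting error only. GSTM5 was called in none of the 7 comparisons, and its adjusted p for iLuc against iEF was 0.0586 (edgeR). No direction for GSTM5 is given in what follows.

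**Figure D1:**
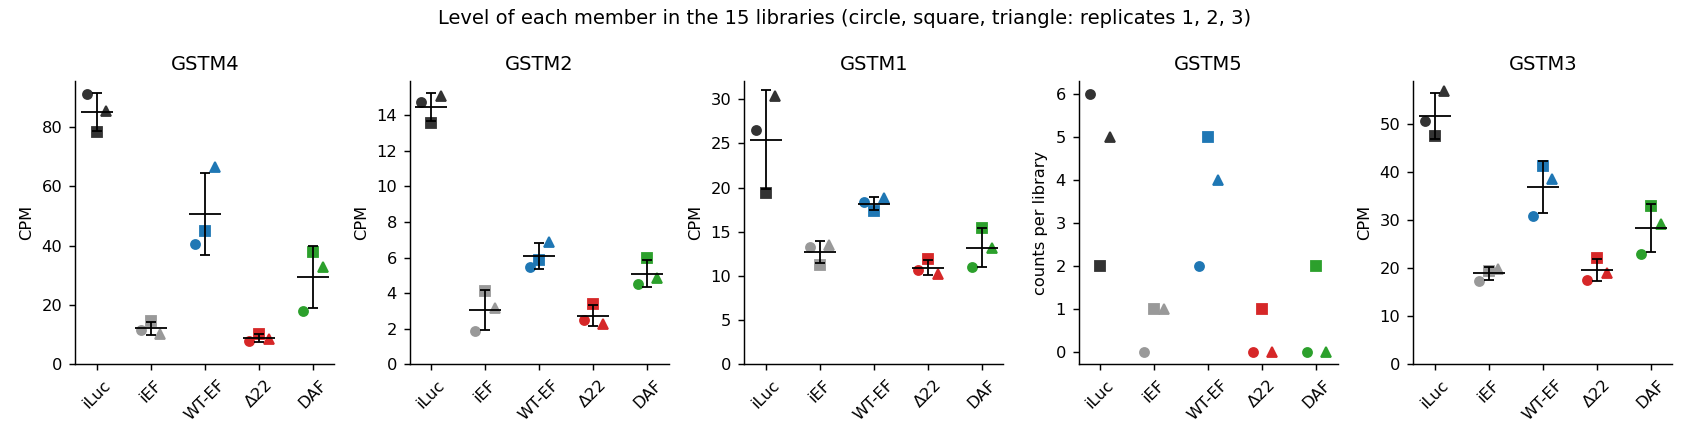
Levels of the 5 members in all 15 libraries, in CPM, except GSTM5, which is in counts per library. Circles, squares and triangles are replicates 1, 2 and 3, and bars are the mean ± SD (n = 3). GSTM4 lies between 78.3 and 91.0 CPM in iLuc and between 7.77 and 14.7 CPM in iEF and Δ22, with DAF and WT-EF between them.

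WT-EF was next compared with iEF to ask whether wildtype cDNA restores the members. The same 4 members were higher in WT-EF, by 1.43-fold for GSTM1, 1.94-fold for GSTM3, 2.05-fold for GSTM2 and 4.16-fold for GSTM4. In this comparison 4 of 5 members were called, with 29.9% of all genes tested called. The 3 iEF libraries serve as the control here, in the comparison with endo-EF and in those with Δ22 and DAF, so these comparisons are not independent of each other.

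GSTM4 stood at 40.7, 44.8 and 66.5 CPM in WT-EF, all above the highest iEF library at 14.7 CPM. The difference was 2.06 ± 0.22 on the log2 scale (SE; adjusted p = 6.08e-06, edgeR). GSTM3 was 30.8, 41.3 and 38.6 CPM, also above all of iEF, with a difference of 0.95 ± 0.11 (SE; adjusted p = 1.34e-05, edgeR). GSTM2 was 5.48, 5.87 and 6.90 CPM, and its difference was 1.03 ± 0.21 (SE; adjusted p = 0.00137, edgeR). GSTM1 was 18.3, 17.4 and 18.8 CPM, each above the iEF maximum of 13.5 CPM. Its difference of 0.52 ± 0.16 had an adjusted p of 0.0228 (edgeR). This call was lost without WT-EF replicate 1 or 2 or iEF replicate 2 or 3, with adjusted p between 0.0523 and 0.0837.

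None of the members was called in Δ22 against iEF. Of the genes tested, 1.3% were called in this comparison. DESeq2 likewise called 0 of 5, and 0 of 5 had an unadjusted p under 0.05 in edgeR. GSTM4 stood at 7.77, 10.4 and 8.50 CPM in Δ22, lower on average than in iEF but overlapping with it. The interval of its log2 difference ran from -0.92 to 0.02, so that an increase of more than 0.02 lay outside the interval. For GSTM2 the interval ran from -0.58 to 0.33, for GSTM1 from -0.55 to 0.14 and for GSTM3 from -0.19 to 0.28. All these upper bounds are below the fitted difference of the same member in WT-EF.

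DAF was then compared with iEF to ask which members respond when the mutated tyrosines are missing from the EWS domain. GSTM4, GSTM2 and GSTM3 were higher in DAF, and GSTM1 was not called. The 3 of 5 called compare with 11.2% of all genes tested. GSTM4 stood at 17.9, 37.8 and 32.7 CPM in DAF, all above the iEF maximum of 14.7 CPM, although DAF replicate 1 was well below the other two. The difference was 1.25 ± 0.22 on the log2 scale (SE; adjusted p = 0.00189, edgeR), or 2.38-fold.

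GSTM3 was 23.1, 32.9 and 29.3 CPM in DAF, above all of iEF, with a difference of 0.58 ± 0.11 (SE; adjusted p = 0.00381, edgeR). GSTM2 was 4.50, 5.96 and 4.83 CPM, above the iEF maximum of 4.11 CPM by a small margin. Its difference was 0.77 ± 0.21 (SE; adjusted p = 0.0266, edgeR). This call was lost without the replicate block (adjusted p = 0.0645), without any DAF library and without iEF replicates 1 or 3, with adjusted p between 0.0637 and 0.130. GSTM1 was 11, 15.4 and 13.2 CPM and overlapped with iEF. The interval of its difference ran from -0.28 to 0.41 (adjusted p = 0.879, edgeR).

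**Figure D2:**
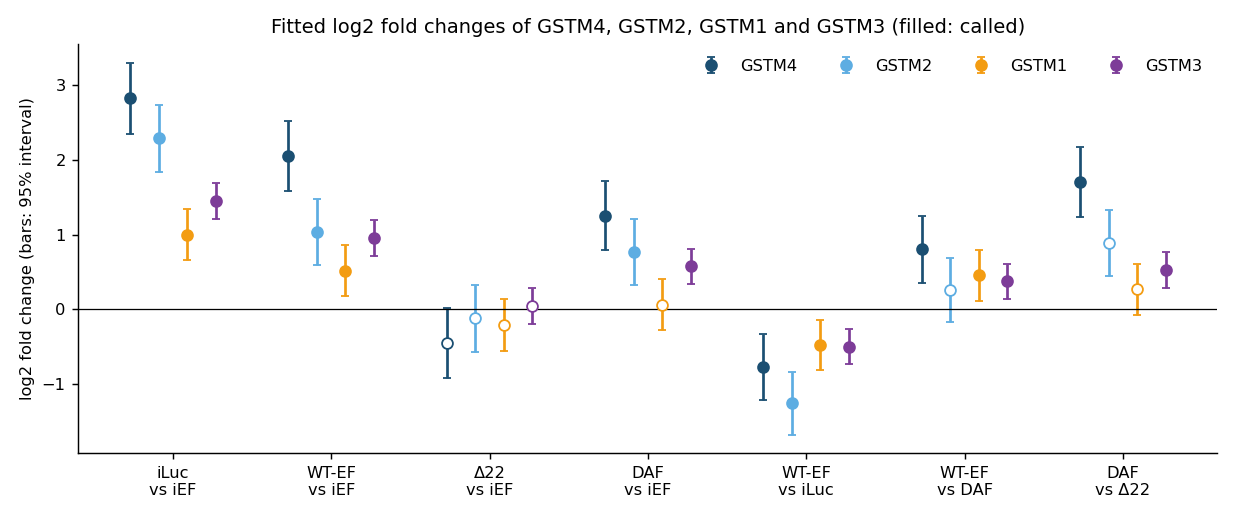
Fitted log2 fold changes of GSTM4, GSTM2, GSTM1 and GSTM3 in the 7 comparisons, with 95% intervals. Filled points had an adjusted p under 0.05 in edgeR. GSTM4 has the highest point in each comparison of iLuc, WT-EF and DAF with iEF (2.83, 2.06 and 1.25), and all 4 points for Δ22 are open.

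The constructs were also compared directly. Against DAF, WT-EF had more GSTM4 (by 0.81 ± 0.21 on the log2 scale, adjusted p = 0.0092), GSTM3 (by 0.38 ± 0.11, adjusted p = 0.0171) and GSTM1 (by 0.46 ± 0.16, adjusted p = 0.0447) in edgeR. These 3 of 5 compare with 28.5% of all genes tested. GSTM2 was not called, and the interval of its difference ran from -0.16 to 0.69. The calls rested on single libraries. Without DAF replicate 1, which was the lowest DAF library for all 4 of these members, 0 of 5 members were called, and the difference in GSTM4 was 0.56 with an adjusted p of 0.0606. Without WT-EF replicate 3 it was 0.56, with an adjusted p of 0.0562. Without WT-EF replicate 2, DAF replicate 3 or WT-EF replicate 3, 1 member was called.

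DAF had more GSTM4 than Δ22, by 1.70 ± 0.22 on the log2 scale (SE; adjusted p = 0.00112, edgeR), and more GSTM3, by 0.53 ± 0.11 (SE; adjusted p = 0.0292, edgeR). These 2 of 5 compare with 1.33% of all genes tested. All DAF libraries exceeded all Δ22 libraries in both genes. The GSTM3 call was lost without any Δ22 library, without DAF replicates 2 or 3 and with no replicate block (adjusted p = 0.142). GSTM2 was also higher in every DAF library than in every Δ22 library, with an adjusted p of 0.0539 (edgeR) and an interval of 0.44 to 1.34. This difference was called with DESeq2 (adjusted p = 0.00329), with DESeq2 on ComBat-adjusted values (0.000709), with edgeR and no low-count filter (0.00212) and with edgeR on only the 6 libraries compared (9.39e-05). It was also called in 4 of the fits that left out 1 library, those without iLuc replicate 2, iEF replicate 1 or 2, or WT-EF replicate 3. The interval for GSTM1 ran from -0.08 to 0.61.

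WT-EF-rescued cells had less of 4 members than cells that were never depleted. Against iLuc, GSTM2 fell by 1.26 on the log2 scale (adjusted p = 4.88e-04), GSTM4 fell by 0.77 (adjusted p = 0.0168), GSTM3 fell by 0.50 (adjusted p = 0.00474) and GSTM1 fell by 0.48 (adjusted p = 0.0448) in edgeR. The 4 of 5 called compare with 19.7% of all genes tested. The libraries of WT-EF lay below all those of iLuc for each of these members. Without iLuc replicate 1, only GSTM2 was called, and without WT-EF replicate 1 or 2 it was joined by GSTM3 alone. The GSTM1 call was the least stable and was lost in 15 of the 18 fits that left out libraries.

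The rescue of each called member was expressed as the part of the difference between iLuc and iEF that a construct restored, in CPM within each replicate number. WT-EF restored 53.0% ± 19.7 (SD, n = 3) of the GSTM4 difference, 56.2% ± 19.4 for GSTM3, 48.1% ± 23.4 for GSTM1 and 26.0% ± 6.69 for GSTM2. The values of GSTM2 in single replicates were 28.0%, 18.6% and 31.5%, below those of GSTM4 at 36.8%, 47.4% and 75.0%. DAF restored 24.8% ± 14.8 for GSTM4, 30.0% ± 16.0 for GSTM3, 18.03% ± 3.38 for GSTM2 and 10.6% ± 35.7 for GSTM1. The spread for GSTM1 in DAF, from -17.2% to 50.9%, covers 0. With Δ22, the means were between -10.2% and 2.56%. The fraction was also taken on log2 CPM, computed from library totals without the TMM adjustment. There WT-EF reached 74.4% for GSTM4 and 48.9% for GSTM2. Scale and adjustment changed together, so their parts in this difference were not separated. These values are descriptions with no test.

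**Figure D3:**
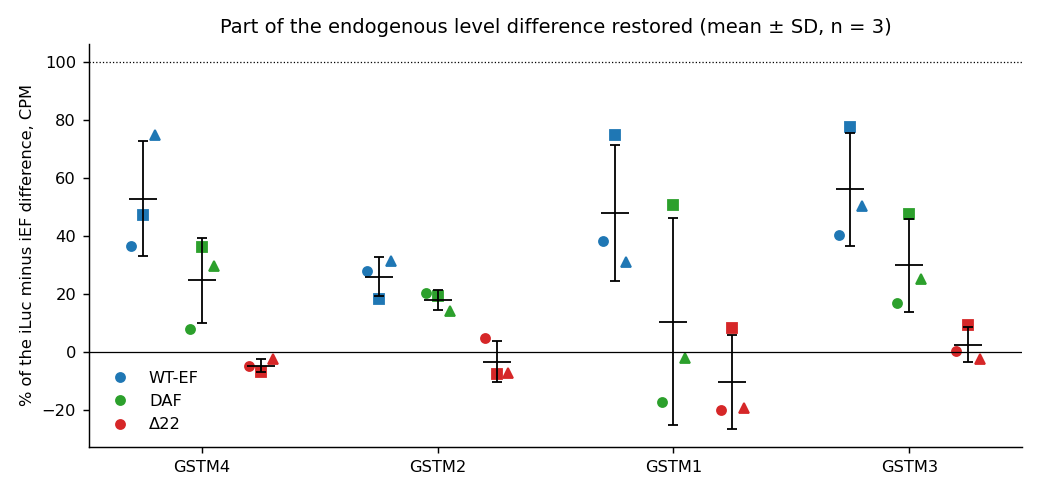
Percentage of the CPM difference between iLuc and iEF that each construct restored, for the 4 called members. Symbols are the replicate numbers (circle 1, square 2, triangle 3), bars are the mean ± SD (n = 3), and the dotted line marks the iLuc level. WT-EF lies between 18.6% and 77.8%, and Δ22 between -19.7% and 9.34%.

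Levels of different genes were compared per kb of the reference transcript. That of GSTM3 has 4122 bases and the others have 1164 to 1561, and which transcripts A673 cells use was not checked. The order depends on these lengths. Before division by length, GSTM3 averaged 51.75 CPM and GSTM1 25.43 CPM in iLuc. With endo-EF, GSTM4 was the most abundant at 60.9 ± 4.56 CPM per kb, followed by GSTM1 at 21.9 ± 4.79, GSTM3 at 12.6 ± 1.17 and GSTM2 at 12.4 ± 0.683 (SD, n = 3). GSTM3 and GSTM2 overlapped. In iEF the order was GSTM1 at 10.9 ± 1.06, GSTM4 at 8.70 ± 1.67, GSTM3 at 4.60 ± 0.327 and GSTM2 at 2.62 ± 0.955 CPM per kb, and GSTM1 and GSTM4 overlapped. In Δ22 the order was the same, with GSTM1 at 9.41 ± 0.756 and GSTM4 at 6.37 ± 0.955 CPM per kb. GSTM4 was again first in WT-EF, at 36.4 ± 9.95, and in DAF, at 21.1 ± 7.41 CPM per kb, where 1 library overlapped with GSTM1. GSTM5 was last in all conditions, at no more than 0.0830 CPM per kb on average.

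Summed over the 5 members, counts were 177 ± 15.6 CPM in iLuc, 46.8 ± 2.79 in iEF, 112 ± 17.9 in WT-EF, 42.2 ± 4.96 in Δ22 and 76.2 ± 18.2 in DAF (SD, n = 3). GSTM4 made up 48.1% ± 2.39 of these counts in iLuc, 44.8% ± 5.27 in WT-EF and 37.9% ± 5.31 in DAF. In iEF it made up 25.8% ± 3.93 and in Δ22 21.0% ± 0.767. GSTM1 made up 27.2% ± 3.97 in iEF and 14.3% ± 1.99 in iLuc.

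**Figure D4:**
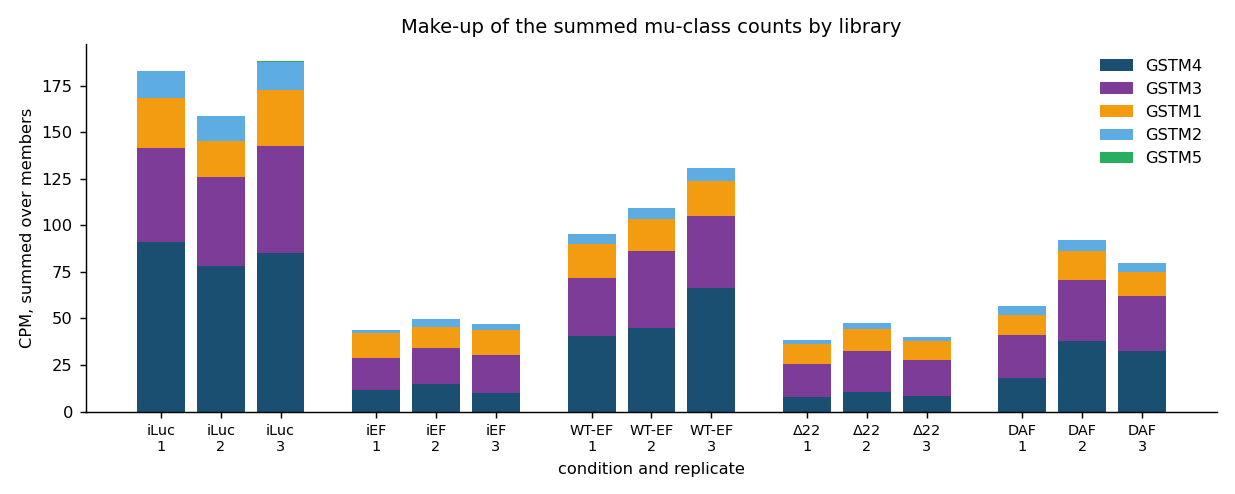
CPM summed over the 5 members in each library, split by member. GSTM4 is the lowest block of each bar. The sums lie between 159 and 188 CPM in iLuc and between 44.04 and 49.6 CPM in iEF, and GSTM5 is too low to be seen.

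Ratios of members within a library do not depend on library size, and were used to ask whether members moved by the same amount. The log2 ratio of GSTM4 to GSTM1 counts was 1.76 ± 0.262 in iLuc and -0.08 ± 0.411 in iEF, a difference of 1.84 between non-overlapping groups. It was 1.45 ± 0.343 in WT-EF and 1.10 ± 0.344 in DAF, both above all iEF libraries, and -0.31 ± 0.130 in Δ22, which overlapped (SD, n = 3). The ratio of GSTM4 to GSTM3 was higher than in iEF by 1.37 in iLuc, 1.09 in WT-EF and 0.66 in DAF, and it differed by -0.49 in Δ22, with no overlap in any of the 4. The ratio of GSTM4 to GSTM2 overlapped between iLuc and iEF, with a difference of 0.52, and was 0.99 higher in WT-EF without overlap. In DAF this ratio differed from iEF by 0.43 and in Δ22 by -0.34, both with overlap. With 3 libraries against 3, the exact two-sided permutation test cannot go below p = 0.1. Of 24 tests (6 pairs in 4 comparisons), 12 reached that value, and the smallest adjusted p was 0.2. The test could not pass its threshold and says nothing either way. Within replicate numbers, the GSTM4 to GSTM1 difference between iLuc and iEF had an SD of 0.189 (n = 3), and in the edgeR fit the interval of the log2 difference ran from 2.35 to 3.30 for GSTM4 and from 0.66 to 1.34 for GSTM1. Ratios that involve GSTM1 or GSTM2 also carry the uncertainty of shared reads.

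Genes around the cluster were split in direction. Of 25 other genes annotated within 250 kb, 16 were tested, and 3 were higher and 3 lower in iLuc than in iEF, beside 41.6% of all genes tested called in either direction. AMIGO1, a neuronal adhesion molecule, was higher by 1.01 on the log2 scale (adjusted p = 0.00499), and AMPD2, an AMP deaminase, was higher by 0.30 (adjusted p = 0.0189). CYB561D1 was lower in iLuc by 0.71 (adjusted p = 6.59e-04), all in edgeR. CSF1, the macrophage growth factor, lies on the other side, 254 kb from the GSTM4 start. It was at 1.35 ± 0.153 CPM in iLuc and 42.6 ± 10.5 CPM in iEF (SD, n = 3). Its level in iLuc was lower by 4.99 on the log2 scale (adjusted p = 2.85e-08, edgeR). The noncoding gene ENSG00000261055 was also lower, at an average of 3.53 counts per library.

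RPL7P8, a pseudogene of a ribosomal protein, starts 4.7 kb upstream of GSTM4. It had 17, 5 and 3 counts in iLuc and 2, 1 and 0 in iEF, with an adjusted p of 0.00682 (edgeR), and 1 iLuc library holds most of its counts. In WT-EF against iEF (29.9% of all genes called), 2 of the 16 were higher (ATXN7L2 and AMPD2, by 0.54 and 0.27) and 2 lower (CSF1 and ENSG00000261055), and CSF1 fell by 2.48. In DAF against iEF (11.2% called), 1 was lower, CSF1, which fell by 1.01 (adjusted p = 0.0232). In Δ22 against iEF (1.3% called), 0 of the 16 were called by edgeR or DESeq2, and 1 had an unadjusted p under 0.05 in edgeR. The median difference of the 16 genes was 0.09 in iLuc and 0.10 in WT-EF, against 0.04 and -0.01 over all genes tested.

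**Figure D5:**
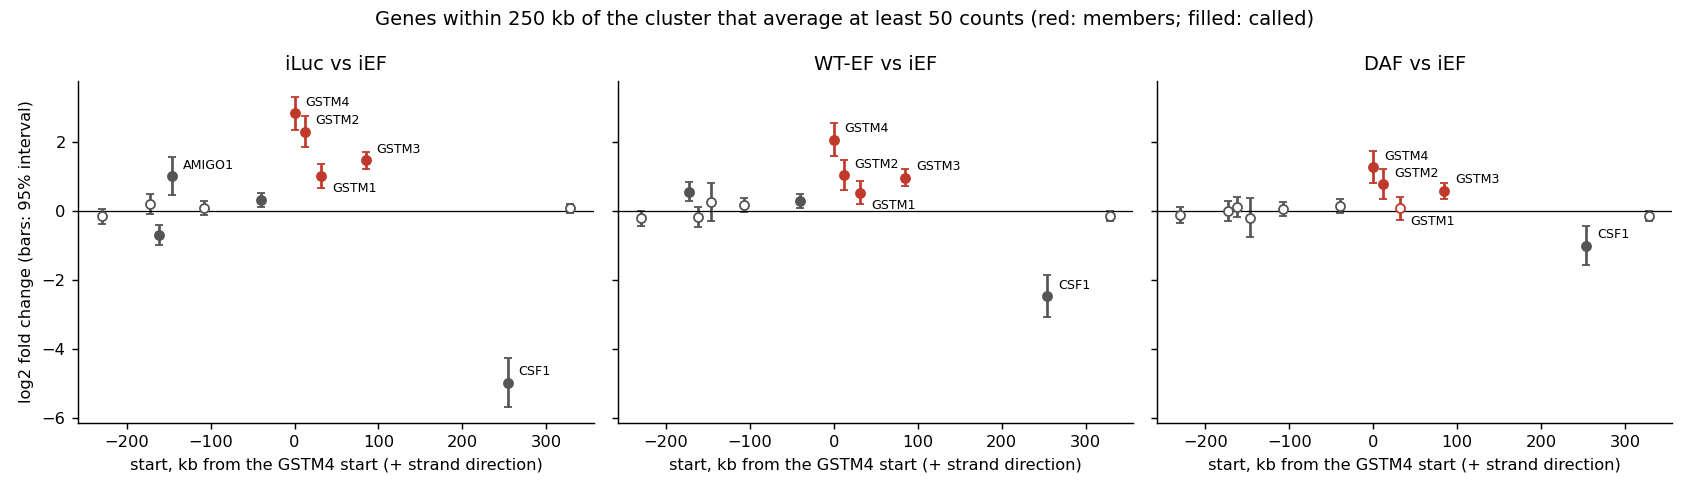
Log2 fold changes against iEF, with 95% intervals, of genes within 250 kb of the cluster that average at least 50 counts, by the distance of their start from that of GSTM4. Members are red, and filled points had an adjusted p under 0.05 in edgeR. Members lie above 0 in iLuc and WT-EF, whereas CSF1 lies at -4.99, -2.48 and -1.01.

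NR0B1, a nuclear receptor, and FCGRT, the neonatal Fc receptor, are other genes described as activated from a nearby microsatellite. In iLuc against iEF they were higher by 3.34 and 3.90 on the log2 scale, and in WT-EF by 3.13 and 3.21. In DAF they were higher by 2.26 (adjusted p = 0.00143) and 3.06 (adjusted p = 1.33e-05, edgeR), beside 1.25 for GSTM4. Neither was called in Δ22, with differences of 0.77 and 0.62.

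The other genes of glutathione metabolism were split in direction. Of a list of 54 such genes, without the members, 48 were tested. In iLuc against iEF, 13 were higher and 20 lower, with a median difference of -0.22 on the log2 scale, against 0.04 over all genes tested, of which 41.6% were called (5624 higher and 6368 lower of 28793). Among 8 tested cytosolic transferases of other classes, 3 were higher and 1 was lower. GSTA4, which acts on the lipid aldehyde 4-hydroxynonenal, was at 39.6 ± 3.28 CPM in iLuc and 14.3 ± 2.45 CPM in iEF (SD, n = 3), a difference of 1.48 (adjusted p = 6.38e-06, edgeR). GSTP1, the pi-class enzyme, was far more abundant and was higher by 0.23 (adjusted p = 0.0383). GSTA4 was also higher in WT-EF, by 1.14, and was not called in DAF, where its difference was 0.29.

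In iLuc against iEF, 0 of 7 peroxidases were higher and 4 lower, beside 41.6% of all genes tested called in either direction. The 4 included GPX3, the secreted glutathione peroxidase, at 0.352 ± 0.0990 CPM in iLuc and 4.82 ± 1.09 CPM in iEF (SD, n = 3). It was lower in iLuc by 3.76 on the log2 scale (adjusted p = 6.93e-06, edgeR). In DAF it was higher than in iEF by 1.38 (adjusted p = 0.0177). Enzymes of glutathione synthesis and recycling were split, with 7 of 15 higher and 6 lower in iLuc, beside the same 41.6%. ANPEP, a cell-surface peptidase that takes part in glutathione breakdown, was at 0.430 ± 0.0734 CPM in iLuc and 34.9 ± 8.61 CPM in iEF. GGT1, the transpeptidase that opens extracellular glutathione, was lower in iLuc by 2.93 on the log2 scale, and the exporter ABCC3 by 3.39. PTGES, a microsomal member of the wider family that makes prostaglandin E, was lower in iLuc by 4.75.

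In WT-EF against iEF, 6 of the 48 were higher and 16 lower (median -0.36 against -0.01 over all genes), where 29.9% of all genes were called. In DAF 4 were higher and 5 lower, beside 11.2%. Without any DAF library or without iEF replicate 1 or 3, the lower genes in DAF were 2 or 3, and without WT-EF replicate 3 they were 8. In DAF the higher genes included SLC7A11, the cystine importer, by 0.83 (adjusted p = 0.00676), and GCLC, the catalytic subunit of the first step of glutathione synthesis, by 0.43 (adjusted p = 0.00483). In Δ22, 0 were called by edgeR, beside 1.3% of all genes, and 9 of the 48 had an unadjusted p under 0.05. DESeq2 called 2 higher and 3 lower there, as many as edgeR without WT-EF replicate 3, and edgeR called 1 without WT-EF replicate 1 or without DAF replicate 3.

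WT-EF against DAF gave 11 higher and 11 lower glutathione genes, beside 28.5% of all genes called. The higher genes were 5 without DAF replicate 3, 6 without WT-EF replicate 3 and 7 without replicate 2 of either condition. WT-EF against iLuc gave 6 higher and 9 lower, beside 19.7%. Without WT-EF replicate 3 the higher genes were 11, and the lower ones were 2 without WT-EF replicate 1, 4 without any 1 of the iLuc libraries and 5 without iEF replicate 1 or 2 or without replicate 1 or 2 of Δ22 or DAF. DAF against Δ22 gave 1 and 1, beside 1.33%, with 0 lower in 11 of the 15 fits that left out 1 library.

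Glutathione transferases are among the targets of NRF2, the factor that drives the antioxidant response, so 24 genes of that response were counted, 4 of which are also in the glutathione list. In iLuc against iEF, 4 were higher and 12 lower, with a median of -0.54, against 0.04 and 41.6% called over all genes tested. NQO1, a classic NRF2 target, was at 35.5 ± 2.59 CPM in iLuc and 174 ± 15.7 CPM in iEF (SD, n = 3). Its level in iLuc was lower by 2.30 on the log2 scale (adjusted p = 2.37e-06, edgeR). HMOX1, heme oxygenase, was lower in iLuc by 1.79 and NFE2L2, which encodes NRF2, by 0.98. The aldo-keto reductases AKR1C3 and AKR1C2 went the other way, higher by 2.90 and 2.84. In WT-EF against iEF, 4 were higher and 9 lower, beside 29.9% of all genes called, and the higher genes were 2 without WT-EF replicate 1.

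In DAF against iEF, 6 antioxidant genes were higher and 1 lower, beside 11.2% of all genes called, with HMOX1 higher by 1.42 (adjusted p = 0.0221, edgeR). The count rested on single libraries, with 3 higher without DAF replicate 1, DAF replicate 3 or iEF replicate 3, and 4 without DAF replicate 2. In Δ22, 0 were higher and 1 was lower, TKT, which fell by 0.33, beside 1.3%, with 0 lower in 12 of the 15 fits that left out 1 library. WT-EF against DAF gave 1 higher and 12 lower, beside 28.5%, and the lower genes were 5 without DAF replicate 3 and 7 without DAF replicate 1 or 2 or WT-EF replicate 3. The higher gene was not called without WT-EF replicate 1 or 3 or DAF replicate 2 or 3. WT-EF against iLuc gave 5 higher and 4 lower, beside 19.7%. Without WT-EF replicate 3 they were 9 and 2, and the lower genes were also 2 without iLuc replicate 1 or 2, WT-EF replicate 1, Δ22 replicate 2 or DAF replicate 2. DAF against Δ22 gave 0 and 0 in both edgeR and DESeq2, beside 1.33%, and 4 of the 24 had an unadjusted p under 0.05 in edgeR.

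Across the 15 libraries, the 4 well-counted members correlated with each other, as they did with many other genes. Pearson's r of log2 CPM, with replicate effects removed, was 0.970 between GSTM3 and GSTM4, 0.953 between GSTM2 and GSTM3, 0.935 between GSTM1 and GSTM3, 0.934 between GSTM2 and GSTM4, 0.903 between GSTM1 and GSTM4 and 0.896 between GSTM1 and GSTM2. The 15 points fall into 5 conditions and are not independent, so these values are descriptions. Ranked by likeness to GSTM1, GSTM3 came 75th, GSTM4 366th and GSTM2 454th. Ranked by likeness to GSTM2, GSTM3 came 23rd and GSTM4 70th, and GSTM4 came 24th for GSTM3. Of 13174 other genes averaging at least 50 counts, the profile most like that of GSTM4 belonged to FEZF1-AS1, a noncoding RNA (r = 0.988), then DAPK1, a death-associated kinase, and SLC43A1, an amino acid transporter. For GSTM3 they were ZKSCAN2 (r = 0.987), PRRT4 and SYNPR, a synaptic vesicle protein. For GSTM2 they were ZNF106 (r = 0.979), LAGE3 and PECR, a peroxisomal reductase. For GSTM1 they were VPS33A (r = 0.983), which acts in vesicle fusion, the transcription factor KLF15 and COA6, a cytochrome c oxidase assembly factor. Pearson's r does not take the size of a change into account. In iLuc against iEF, VPS33A was higher by 0.305, COA6 by 1.07 and KLF15 by 4.15 on the log2 scale, beside 1.00 for GSTM1. VPS33A was not called in WT-EF against iEF.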

How the data were processed

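RNA-seq of A673 cells was analysed from the counts deposited by the authors. The authors had aligned the reads with STAR to hg19 and counted them per gene with htseq-count in intersection-strict mode. The annotation release and the strand setting are not given in the sources used here. The authors also deposited ComBat-adjusted counts, a signal that is no longer whole numbers, and these were used after rounding in an alternative only. A deposited table of the authors' own fold changes and p-values was not used. In the count table, 3 columns belong to other samples and were left out.

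The 28793 genes with an average of 1 count or more were fitted with edgeR 4.0.16 in R 4.3.3 (TMM, quasi-likelihood test, condition and replicate number). The replicate number was kept as a block because the study adjusted each set of replicates for batch. The Benjamini-Hochberg adjustment was applied per comparison at a threshold of 0.05. Ratios used counts plus 1 and exact permutation tests. CPM per kb is CPM divided by the length of the reference transcript. Counts of all 15 libraries were also simulated, with no replicate effect. In iLuc, 200 genes averaging at least 50 counts were changed by 1 on the log2 scale, up or down. Of these, 173 were recovered in iLuc against iEF among 28194 genes, with 8 unchanged genes called. These rates do not carry over to smaller changes, lower counts or data with replicate effects. Replicates differed by more than counting noise, with a chi-square per gene of 12.9 to 83.2. Alternatives were DESeq2 1.42.0, other size factors and filters, no block, only the libraries compared, a fold threshold, other pseudocounts and fits without libraries.

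Genes named are the members, FLI1, NR0B1, FCGRT, called neighbours, the 3 genes most like each member, and list genes averaging at least 50 counts among the 8 largest called differences. GSTP1 was named after its values were seen. The members and lists were chosen with earlier results of these data known.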

Additional observations from a re-analysis of the deposited data

How the results depend on the processing

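The calls for GSTM1 to GSTM4 in iLuc and WT-EF against iEF numbered 4 with both DESeq2 fits, other size factors, both filters, no replicate block and only the libraries compared, and Δ22 against iEF gave 0 in each. Without the replicate block, members called fell from 3 to 2 for DAF against iEF and for WT-EF against DAF and from 2 to 1 for DAF against Δ22. With a log2 fold change over 1 required, 2 members were called for WT-EF against iEF, 1 for DAF against iEF, 1 for WT-EF against iLuc, 0 for WT-EF against DAF and 1 for DAF against Δ22, since fewer differences are that large. Over fits that left out libraries, the members called ranged from 1 to 3 for DAF against iEF, 1 to 4 for WT-EF against iLuc, 0 to 3 for WT-EF against DAF and 1 to 3 for DAF against Δ22. On log2 CPM from library totals without the TMM adjustment, the restored fraction in WT-EF was 48.9% for GSTM2 and 74.4% for GSTM4. In DAF the values were 33.5% and 43.8%, and GSTM4 was at -13.8% in Δ22.

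Uncalled log2 differences near 0 changed sign when libraries were left out. For Δ22 against iEF they ran from -0.34 to 0.10 for GSTM2 and from -0.0221 to 0.12 for GSTM3, and for DAF against iEF from -0.15 to 0.23 for GSTM1. For GSTM5 they ran from -2.62 to 0.78 in DAF against iEF (0.0241 with ComBat-adjusted values and 0.033 without the replicate block), -1.29 to 0.35 in WT-EF against iLuc and -1.83 to 2.56 in DAF against Δ22. Ratio differences from iEF ran from -0.20 to 0.44 (GSTM2 to GSTM3, WT-EF), -0.42 to 0.0034 (same pair, Δ22), -0.0812 to 0.45 (same pair, DAF) and -0.20 to 0.34 (GSTM2 to GSTM1, Δ22). Paired differences within replicate numbers, which cannot give p under 0.25, left the ratio differences at their values. The cause of these changes was not tested. Deviations from the condition mean correlated with a median r of 0.147 between libraries of the same number (30 pairs, from -0.117 to 0.641). Between other numbers the median was -0.0797 (60 pairs). Deviations within a condition sum to 0 by construction, so this value follows in part from that for the same number. For 12 of 15 libraries the average correlation was highest with their own number. The list counts ranged over the same settings as well, for example between 2 and 13 higher and 9 and 21 lower glutathione genes in iLuc against iEF, in alternatives added after seeing the data. Depth limits GSTM5 in particular, where 3 counts are the floor.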
